A study of Mus musculus with 10 samples.

Results

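The Toll-like receptors measured here were taken from a list of 10 mouse genes, 5 for receptors of the cell surface (Tlr1, Tlr2, Tlr4, Tlr5 and Tlr6) and 5 for receptors of endosomes (Tlr3, Tlr7, Tlr8, Tlr9 and Tlr13). A receptor was measured by the probe set whose only gene symbol was its own. This rule found 9 of the 10, each with 1 probe set, among 19938 genes in all. Tlr5, the receptor for flagellin, had no probe set named in this way and is not analysed here. The cells came from the long bones of male Swiss mice aged 4 to 6 weeks and were cultured in serum with calcitriol (active vitamin D) in both groups. Recombinant mouse adiponectin, a hormone of fat cells, was added to the adiponectin group at 5 µg/ml, and the control group is described as given vehicle in one label and as not treated in another. One culture of each group was taken at each of 4, 10, 24, 72 and 120 h, which gave 10 arrays in 5 pairs. The series title names contamination with lipopolysaccharide, the endotoxin of bacterial outer membranes. If it came with the added protein, its effects and those of adiponectin cannot be told apart in these pairs. Differences are named after adiponectin here because the groups are labelled so. No label states that each culture had its own donor mouse, and p-values here cover just the variation among these 10 cultures, possibly technical in origin.

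Toll-like receptors are membrane proteins that bind molecules typical of microbes. Surface receptors bind bacterial lipids and proteins: Tlr4 binds lipopolysaccharide together with Ly96 and Cd14, and Tlr2 binds lipopeptides as a pair with Tlr1 or Tlr6. Endosomal receptors bind nucleic acids: Tlr3 double-stranded RNA, Tlr7 and Tlr8 single-stranded RNA or its breakdown products, Tlr9 DNA with unmethylated CpG, and Tlr13 bacterial ribosomal RNA. Most of them signal through the adaptor Myd88 to the transcription factor NF-kB, while Tlr3 uses the adaptor Ticam1 and Tlr4 uses both. In marrow the receptors are found on monocytes, macrophages, dendritic cells, B cells and granulocytes.

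The marrow cultures were mixed and changed over time in both groups. The mean of the 8 measured macrophage markers lay between 12.01 and 12.34 (log2) in the control arrays. The mean of 10 neutrophil markers in the control arrays ranged from 13.29 down to 9.72, and that of 7 osteoclast markers from 10.13 up to 12.43. Of all marker genes tested for B cells, plasmacytoid and type 1 dendritic cells, macrophages, monocytes, neutrophils, T and NK cells and stromal cells, 0 passed the test of adiponectin against control. Of all genes 2.05% rose and 0.371% fell in that test, so lists this short would hold few calls in any case. Ptprc, a marker of all leukocytes, did not pass either (mean log2 difference 0.28 ± 0.12, SD over 5 pairs, limma adjusted p = 0.0958). It was higher in 5 of 5 pairs, which 6.32% of all genes were. Of 7 osteoclast markers, 1 fell (Atp6v0d2, a proton pump subunit of osteoclasts, mean log2 difference -0.91 ± 0.43, SD over 5 pairs, limma adjusted p = 0.00346). The mean of the 7 osteoclast markers was lower with adiponectin by 0.43 at 24 h, 1.23 at 72 h and 0.39 at 120 h. It differed by -0.01 at 4 h and 0.04 at 10 h. The mean of 4 monocyte markers was lower by 0.48 at 4 h, 0.17 at 10 h, 0.41 at 24 h and 0.01 at 72 h, and higher by 0.23 at 120 h. The larger of these shifts are as large as several receptor differences, and the part of such shifts in the receptor differences was not tested. Array medians over genes lay between 8.27 and 8.48, and centring the arrays on them lowered every difference at 10 h by 0.14. In such bulk cultures, fewer cells of a type and less RNA per cell cannot be told apart.

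Adiponectin was set against control over the 5 times, with surface and endosomal receptors side by side. Tlr3 and Tlr9 were more than 2-fold higher, Tlr2, Tlr1 and Tlr7 were higher by smaller amounts, and Tlr4 and Tlr13 had mean differences close to 0. With time as a block, 5 of 9 receptors rose and 0 fell (limma, Benjamini-Hochberg adjusted p under 0.05 over all genes), where 2.05% of all genes rose and 0.371% fell. The receptors that rose were 2 of 4 surface receptors (Tlr1 and Tlr2) and 3 of 5 endosomal receptors (Tlr3, Tlr7 and Tlr9). All receptors but Tlr4 and Tlr13, 7 of 9, were higher in 5 of 5 pairs, which 6.32% of all genes were. With arrays centred on their medians, or after repeated quantile normalization, 6 of 9 were, without Tlr6. In the deposited values 0 were lower in 5 of 5 pairs, which 4.4% of all genes were. At an unadjusted p under 0.05, 6 of 9 receptors passed, all higher (the 5 and Tlr8), beside 10.1% of all genes in either direction.

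**Figure D1:**
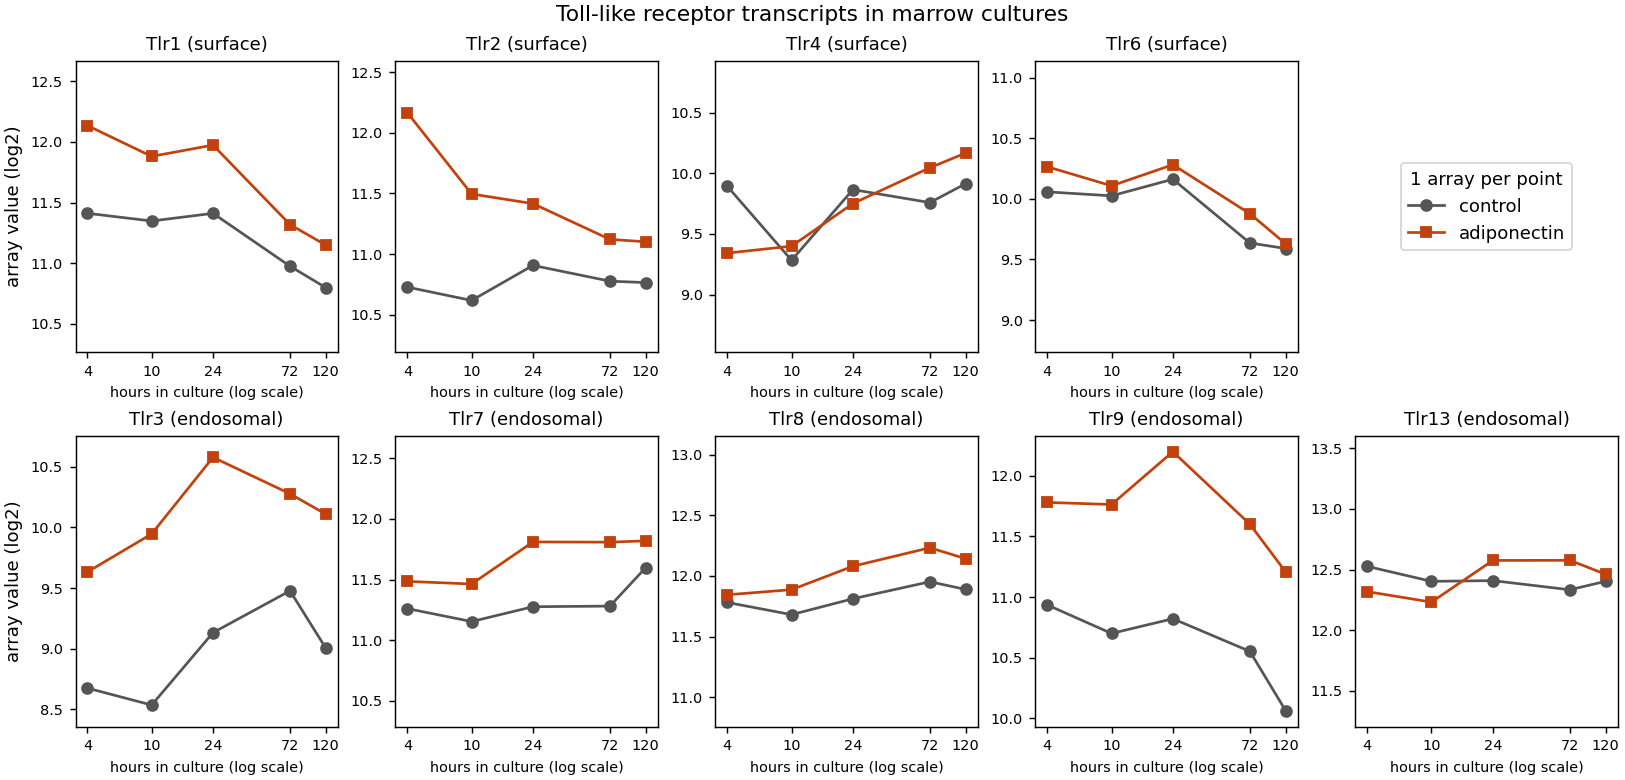
Array value (log2, 1 array per point) of each measured Toll-like receptor against hours in culture (log scale), control and adiponectin cultures drawn as separate lines. Tlr2, Tlr3 and Tlr9 have every adiponectin value above every control value, while the lines of Tlr4 and Tlr13 cross.

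Tlr9, the receptor for CpG DNA, read 10.93, 10.70, 10.82, 10.55 and 10.06 (log2) in control cultures at 4, 10, 24, 72 and 120 h. In adiponectin cultures it read 11.78, 11.76, 12.20, 11.60 and 11.21 at the same times. The groups did not overlap: the lowest adiponectin value, at 120 h, lay above the highest control value, at 4 h, and both groups were lowest at 120 h. The mean log2 difference was 1.10 ± 0.19 (SD, n = 5 pairs), a 2.14-fold rise with a 95% interval of 0.91 to 1.28 (log2) and an adjusted p of 3.07e-05. The single differences ran from 0.85 at 4 h to 1.38 at 24 h, and their mean was 1.10 over 4 to 24 h and 1.10 over 72 and 120 h. The excess of Tlr9 was thus as large on the last days as on the first.

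Tlr9 is an abundant receptor of B cells and plasmacytoid dendritic cells, and the marker means of both were lower late in culture. In control cultures falling slopes passed the test for 3 of 8 B cell and 2 of 6 plasmacytoid markers (4.45% of all genes). In adiponectin cultures they passed for 3 of 8 and 4 of 6 (3.46% of all genes). The mean of the 8 measured B cell markers was 10.45, 10.46, 10.37, 9.59 and 8.66 in the control arrays and 10.46, 10.38, 10.51, 9.68 and 8.84 in the adiponectin arrays. The mean of 6 plasmacytoid dendritic cell markers was 9.88, 9.96, 9.90, 8.84 and 8.16 in control and 10.08, 9.86, 9.97, 8.78 and 8.01 in adiponectin cultures. Adiponectin minus control lay between -0.08 and 0.19 for the mean of the B cell list and between -0.14 and 0.20 for that of the plasmacytoid list. Single markers differed by more in both directions. Ly6d of the plasmacytoid list differed by 0.83 at 4 h and -1.09 at 10 h. Cd79b of the B cell list differed by -0.63 at 10 h and 0.52 at 120 h. The Tlr9 differences were 0.85 or more at every time, and the part of these cells in them was not tested. None of these B cell and plasmacytoid markers (0 of 8 and 0 of 6) passed the test of adiponectin against control. Of all genes 2.05% rose and 0.371% fell in it, so 0 calls in lists this short say little. Both list means and Tlr9 were lowest at 120 h in both groups. The receptors are also found on macrophages and monocytes. Over the 5 times the list differences ran from -0.06 to 0.20 for 8 macrophage markers and from -0.48 to 0.23 for 4 monocyte markers. The part of those cells in the Tlr9 difference was not tested either.

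**Figure D2:**
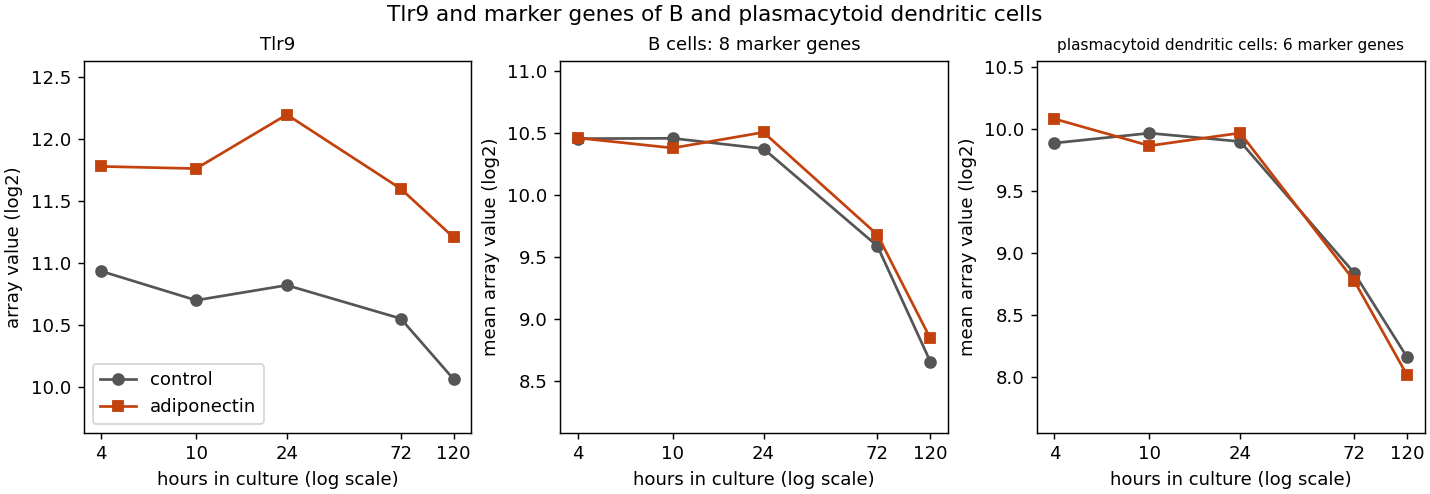
Tlr9 (left) and the mean array value (log2) of 8 B cell marker genes (middle) and 6 plasmacytoid dendritic cell marker genes (right) against hours in culture (log scale), 1 array per point; all 3 panels span 3 log2 units. The adiponectin line lies above the control line at all 5 times for Tlr9, and the lines of both marker lists lie within 0.20 of each other.

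Tlr3, the receptor for double-stranded RNA, read 8.68, 8.54, 9.13, 9.48 and 9.004 in control cultures at 4, 10, 24, 72 and 120 h. In adiponectin cultures it read 9.63, 9.95, 10.58, 10.28 and 10.11. Again the groups did not overlap, with the lowest adiponectin value (4 h) above the highest control value (72 h). The mean log2 difference was 1.14 ± 0.28 (SD, n = 5 pairs), a 2.21-fold rise (95% interval 0.92 to 1.37, adjusted p = 8.63e-05). The difference was 0.96 at 4 h, 1.41 at 10 h, 1.45 at 24 h, 0.80 at 72 h and 1.11 at 120 h. Among dendritic cells Tlr3 is typical of the type 1 subset, whose 5 markers had mean differences from -0.43 to 0.16 over the 5 times. Of these markers, Xcr1 (control mean 6.84), Clec9a (6.83) and Itgae (7.68) were dim, below the median gene level of 8.43. The list mean is thus a weak measure of these cells. Both the Tlr3 and the Tlr9 rise passed the test under all 12 alternatives, with an adjusted p of at most 0.0264.

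Tlr2, the lipopeptide receptor, was nearly flat in control cultures, at 10.73, 10.62, 10.91, 10.78 and 10.76. In adiponectin cultures it was highest at 4 h and lower at each later time, at 12.16, 11.50, 11.42, 11.12 and 11.10. Every adiponectin value lay above every control value. The difference was 1.44 at 4 h, a 2.71-fold excess, 0.88 at 10 h, 0.51 at 24 h, 0.34 at 72 h and 0.34 at 120 h. The mean of these 5 differences was 0.70 ± 0.47 (SD), 1.63-fold (95% interval 0.38 to 1.02, adjusted p = 0.0277). Of the 9 receptors, 3 (Tlr2, Tlr3 and Tlr9) had groups that did not overlap in this direction, which 1.53% of all genes had. The Tlr2 rise lost its call without the 10 h pair (adjusted p = 0.108) or the 24 h pair (adjusted p = 0.0845).

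Tlr1, which pairs with Tlr2 on triacylated lipopeptides, was higher at every time but its groups overlapped. Control cultures read 11.41, 11.35, 11.41, 10.98 and 10.80, and adiponectin cultures read 12.14, 11.88, 11.97, 11.32 and 11.15. The overlap came from the late times: the adiponectin values at 72 and 120 h lay below the control values at 4, 10 and 24 h. The mean log2 difference was 0.50 ± 0.16 (SD, n = 5 pairs), 1.42-fold (adjusted p = 0.0056). It was 0.61 over 4 to 24 h and 0.35 over 72 and 120 h.

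Tlr6, the other partner of Tlr2, differed far less. Its control values were 10.06, 10.02, 10.16, 9.64 and 9.59, and its adiponectin values 10.26, 10.11, 10.28, 9.88 and 9.63. In the deposited values adiponectin was the higher one in 5 of 5 pairs, by 0.04 to 0.24. The sign turned at 10 h with centred arrays (-0.05) and at 10 h (-0.05) and 120 h (-0.03) after repeated quantile normalization. The mean difference of 0.14 ± 0.08 (SD) did not pass the test (adjusted p = 0.588, 95% interval -0.02 to 0.29). Tlr1 and Tlr6 are neighbours on chromosome 5, with 0 protein-coding genes between them in RefSeq. Whether their probe sets cross-hybridise was not tested.

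Tlr4, the lipopolysaccharide receptor, differed in both directions. Control cultures read 9.89, 9.28, 9.87, 9.76 and 9.91, and adiponectin cultures read 9.34, 9.40, 9.75, 10.05 and 10.17. The adiponectin value was 0.55 below control at 4 h and 0.11 below it at 24 h, and above control by 0.12 at 10 h, 0.29 at 72 h and 0.25 at 120 h. The 10 h control value was the lowest of the 5 control values by a wide gap, and that array had the lowest median of the 10; the difference at 10 h was -0.02 with arrays centred on their medians and -0.05 after repeated quantile normalization. The mean difference was -0.00 ± 0.34 (SD, adjusted p = 0.999), and its 95% interval of -0.26 to 0.25 is wide enough to hold changes of either sign.

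Among the other endosomal receptors, Tlr7 rose and Tlr8 and Tlr13 did not pass the test. Tlr7, a sensor of single-stranded RNA, read 11.26, 11.15, 11.28, 11.28 and 11.60 in control and 11.48, 11.46, 11.81, 11.81 and 11.82 in adiponectin cultures. The groups overlapped through the 120 h control, which lay above the adiponectin values at 4 and 10 h. The mean difference of Tlr7 was 0.36 ± 0.16 (SD, n = 5 pairs), 1.29-fold, with an adjusted p of 0.0392 that did not survive leaving out any pair: it was 0.055 without 4 h, 0.0918 without 10 h, 0.173 without 24 h, 0.194 without 72 h and 0.0594 without 120 h. It was 0.053 after repeated quantile normalization and 0.0626 with centred arrays, so the Tlr7 call lies close to the threshold.

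Tlr8, the neighbour of Tlr7 on chromosome X, with 0 protein-coding genes between them in RefSeq, was higher in 5 of 5 pairs by 0.06 to 0.28. It ranged from 11.68 to 11.95 in control and from 11.85 to 12.23 in adiponectin cultures, with overlap. The mean difference of 0.21 ± 0.09 (SD) had an adjusted p of 0.239 and a 95% interval of 0.06 to 0.37, which, like every interval here, is not adjusted for the number of genes. Tlr13, the sensor of bacterial ribosomal RNA, read 12.53, 12.40, 12.41, 12.33 and 12.40 in control and 12.32, 12.23, 12.58, 12.58 and 12.46 in adiponectin cultures. It was lower with adiponectin at 4 and 10 h and higher from 24 h on, with a mean difference of 0.02 ± 0.20 (SD, adjusted p = 0.98, 95% interval -0.17 to 0.21).

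**Figure D3:**
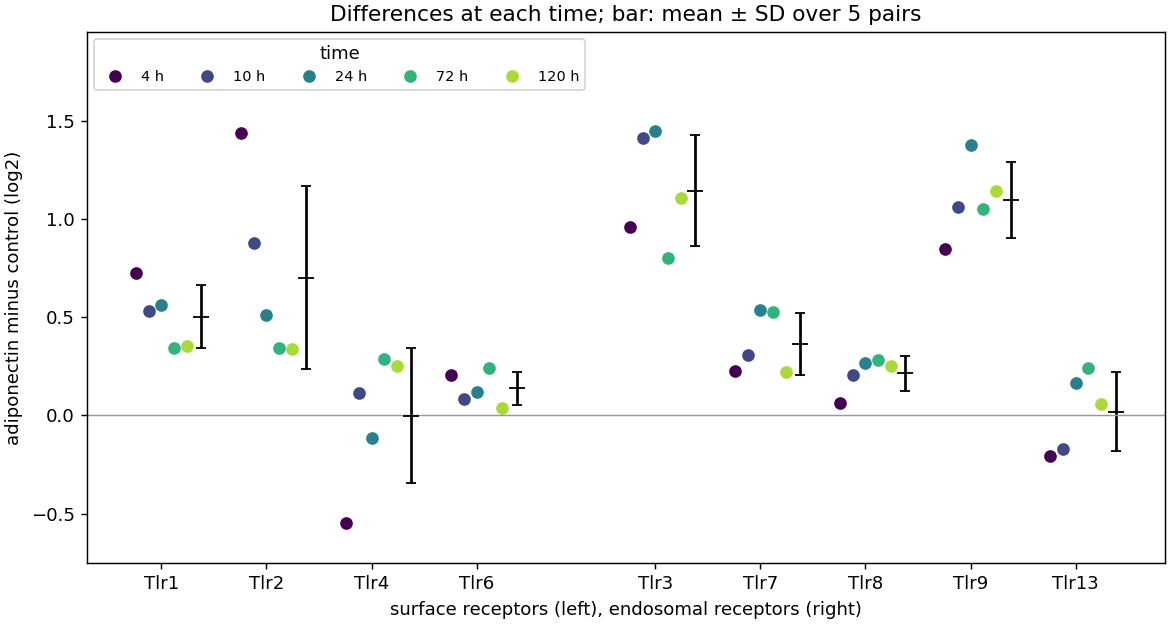
Adiponectin minus control (log2) of each receptor at each of the 5 times, points being single pairs of arrays, with surface and endosomal receptors drawn apart. Tlr2 reaches 1.44 at 4 h and 0.34 at 120 h, while Tlr9 stays between 0.85 and 1.38; Tlr4 and Tlr13 have points on both sides of 0.

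Surface and endosomal receptors had similar medians of the difference averaged over the 5 times, though not at each time. Each class held genes that rose and genes that did not pass the test. The median mean difference was 0.32 for the 4 surface receptors and 0.36 for the 5 endosomal ones, beside 0.01 for all genes. At 4 h the surface median was 0.47 and the endosomal one 0.22, and at 10 h they were 0.32 and 0.31. At 24 h they were 0.31 and 0.53, at 72 h 0.32 and 0.53, and at 120 h 0.29 and 0.25. These medians rest on 4 and 5 genes and were not tested against each other. The receptor with the largest difference was Tlr2, of the surface, at 4 h, Tlr3 at 10 and 24 h, and Tlr9 at 72 and 120 h, both of endosomes.

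Single times had 1 array a group and no test. A log2 difference of 1 or more in favour of adiponectin was reached at 4 h by 1 receptor (Tlr2), where 0.727% of all genes reached it. Tlr3 and Tlr9 reached it at 10 h (0.893% of all genes), where Tlr9 was at 1.06 but at 0.93 with centred arrays and 0.97 after repeated quantile normalization. Both reached it at 24 h (0.853%), Tlr9 alone at 72 h (0.547%), and Tlr3 and Tlr9 at 120 h (0.752%). In the opposite direction 0 receptors reached it at any time, where 0.12%, 0.13%, 0.226%, 0.155% and 0.0301% of all genes did at the 5 times in order.

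The promoters of the 3 receptors whose groups did not overlap, and of Tlr6 for contrast, are shown as a description. No link between promoter sequence and the rises was tested. They are the RefSeq entries of build GRCm38.p6, each 300 bases from 250 before to 50 after the start of transcription, on the gene's strand, and 8 of the 10 listed receptors had at least 1 entry; Tlr4 and Tlr7 had none. Capitals mark matches, on either strand, to the NF-kB letters GGGANNNNCC (present in 20.7% of all 32851 promoters), the interferon-stimulated response element core GAAANNGAAA (3.44%), its looser form AAANNGAAA (10.6%) and the PU.1 core GAGGAAGT (3.2%). The looser form contains the stricter one and was added after the Tlr3 letters had been read.
Tlr9, chr9:106222348-106222647, plus strand: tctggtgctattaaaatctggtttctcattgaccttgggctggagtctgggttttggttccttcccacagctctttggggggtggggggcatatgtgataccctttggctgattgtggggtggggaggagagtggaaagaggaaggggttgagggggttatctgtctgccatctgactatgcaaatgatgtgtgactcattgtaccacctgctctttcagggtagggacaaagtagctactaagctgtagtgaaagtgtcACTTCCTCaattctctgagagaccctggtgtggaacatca
Tlr3, chr8:45410331-45410630, minus strand: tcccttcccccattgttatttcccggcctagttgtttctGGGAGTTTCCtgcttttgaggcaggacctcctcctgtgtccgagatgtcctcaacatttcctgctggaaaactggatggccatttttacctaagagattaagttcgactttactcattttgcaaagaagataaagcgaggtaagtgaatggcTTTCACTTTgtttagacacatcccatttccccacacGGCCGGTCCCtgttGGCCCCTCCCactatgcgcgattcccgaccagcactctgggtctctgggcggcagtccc
Tlr2, chr3:83841559-83841858, minus strand: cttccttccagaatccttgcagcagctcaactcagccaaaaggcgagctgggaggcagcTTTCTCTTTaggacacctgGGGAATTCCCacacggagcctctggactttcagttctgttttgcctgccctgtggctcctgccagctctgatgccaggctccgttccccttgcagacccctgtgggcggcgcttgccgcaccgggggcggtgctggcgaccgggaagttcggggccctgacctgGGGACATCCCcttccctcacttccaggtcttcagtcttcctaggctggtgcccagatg
Tlr6, chr5:64959117-64959416, minus strand, the first of its 2 entries: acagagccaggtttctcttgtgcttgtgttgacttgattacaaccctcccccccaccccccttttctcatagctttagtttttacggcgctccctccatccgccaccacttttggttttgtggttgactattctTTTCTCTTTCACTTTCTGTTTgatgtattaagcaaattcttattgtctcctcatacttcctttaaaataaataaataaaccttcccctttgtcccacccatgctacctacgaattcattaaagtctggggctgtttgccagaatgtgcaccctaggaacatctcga

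The printed windows differed in the letters they held. In Tlr2 the NF-kB letters began 172 and 8 bases before the start, as GGGAATTCCC and GGGACATCCC, and the looser interferon letters 191 bases before it. In Tlr3 the NF-kB letters began 211, 23 and 9 bases before the start and the looser interferon letters 59 bases before it. Of the letters searched, Tlr9 held only the PU.1 core, on the opposite strand and after the start. The printed Tlr6 entry held 2 overlapping matches to the stricter interferon core, 116 and 110 bases before the start, and no NF-kB letters. The second Tlr6 entry, not printed, held 0 matches of any kind. Tlr1, which rose and is not printed, held 0 matches in its first entry and only a PU.1 core in its second. Tlr8 and Tlr13, which did not pass the test, held 0 matches. Tlr5, not measured, held 1 match, to the NF-kB letters. A match describes letters in this window and says nothing about whether a factor was bound.

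The course over time was fitted separately in each group as the change in log2 value per doubling of hours. In control cultures 0 of 9 receptors passed the test in either direction, where 4.64% of all genes rose and 4.45% fell. With arrays centred on their medians the split of all genes was 738 rising to 1559 falling, in place of 925 to 888. At an unadjusted p under 0.05 the control slopes of 3 receptors passed, beside 26.4% of all genes. These were Tlr1 (-0.12 per doubling, adjusted p = 0.0705), Tlr6 (-0.11, adjusted p = 0.127) and Tlr9 (-0.14, adjusted p = 0.153). The control slope of Tlr1 passed the adjusted test without the 24 h pair (adjusted p = 0.0146) and so did that of Tlr6 (adjusted p = 0.0328).

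In adiponectin cultures 3 surface receptors changed over time and 0 of 5 endosomal ones did. Tlr2 fell by 0.20 per doubling of hours (adjusted p = 0.0104) and Tlr1 fell by 0.20 (adjusted p = 0.0141), where 3.46% of all genes fell. Tlr4 rose by 0.18 per doubling (adjusted p = 0.0406), where 4.15% of all genes rose. At an unadjusted p under 0.05, 6 of 9 receptors passed in this group, the others being Tlr6, Tlr7 and Tlr8, beside 20.5% of all genes. In this group the lipopeptide receptors Tlr2 and Tlr1 were highest at 4 h, and the lipopolysaccharide receptor Tlr4 was lowest at 4 h. The Tlr2 slope was -0.12 without the 4 h pair (adjusted p = 0.15) and lost its call without 72 h (0.0863) or 120 h (0.097), and with hours in place of log2 hours (0.0644). The Tlr1 slope lost it without 72 h (0.104) or 120 h (0.209), and the Tlr4 slope without 24 h (0.0677), 72 h (0.182) or 120 h (0.316). The Tlr6 slope of -0.12 (adjusted p = 0.116) passed without the 24 h pair (0.0248) and with hours in place of log2 hours (0.0186), so that with hours the falling receptors were Tlr1 and Tlr6.

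**Figure D4:**
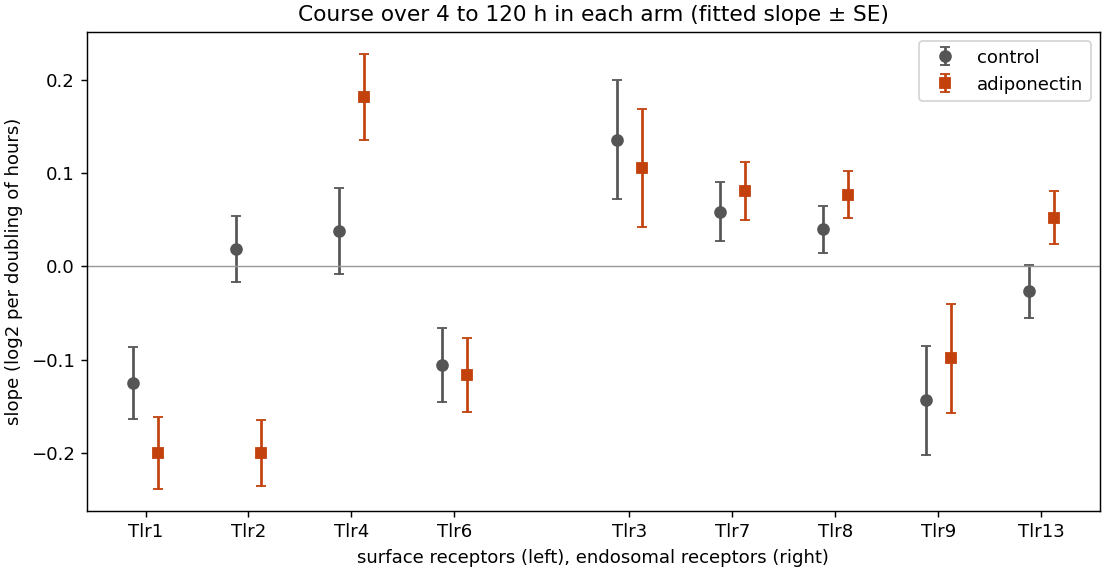
Fitted slope (log2 per doubling of hours from 4 to 120 h, ± SE of the fit) of each receptor in control and adiponectin cultures. In the adiponectin group Tlr1 and Tlr2 lie at -0.20 and Tlr4 at 0.18, while the control slopes of Tlr2 and Tlr4 lie at 0.02 and 0.04.

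Whether the difference between the groups itself moved with time was tested by the treatment by log2 hours term. For 0 of 9 receptors and 0 of 19938 genes (0%) did this term pass the adjusted limma test. At an unadjusted p under 0.05 it passed for 2 receptors, beside 9.83% of all genes. The Tlr2 difference had a slope of -0.22 per doubling of hours (adjusted p = 0.436), and that of Tlr4 had a slope of 0.14 per doubling (adjusted p = 0.499). Limma with an intensity trend and a robust prior called 5 genes in all and 0 receptors. The slopes of Tlr2 and Tlr4 in the adiponectin group are therefore not shown to differ from those in the control group.

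Of 48 further genes of the pathway, 42 were measured, 6 rose with adiponectin (2.05% of all genes did) and 0 fell (0.371% did), with a median mean difference of 0.05 beside 0.01 for all genes. By role, 2 of 6 adaptors rose, 2 of 12 kinases and ligases, 1 of 4 transcription factors and 1 of 7 inhibitors, while 0 of 4 co-receptors and 0 of 9 chaperones and processing enzymes did. The largest rise was that of Irf7, the transcription factor through which Tlr7 and Tlr9 induce type I interferon, at 1.76 ± 0.44 (SD, n = 5 pairs; 3.38-fold, adjusted p = 3.15e-05). Irf7 is itself a gene that interferon induces.

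Among the adaptors, Pik3ap1, which links receptors to phosphoinositide kinase, rose by 0.47 ± 0.15 (SD, adjusted p = 0.00731). Myd88, the adaptor shared by every receptor here but Tlr3, rose by 0.32 ± 0.10 (SD, adjusted p = 0.0483). That Myd88 call was lost without any 1 pair (adjusted p from 0.107 to 0.141) and under repeated quantile normalization (0.0539). Among kinases and ligases, Ikbke, a kinase of the Irf pathway, rose by 0.71 ± 0.09 (adjusted p = 0.00021) and Peli1, a ubiquitin ligase, by 0.69 ± 0.22 (adjusted p = 0.00146). Irak3, a kinase-like protein of macrophages that restrains Myd88 signalling, rose by 0.81 ± 0.05 (adjusted p = 5.95e-05), within 0.77 to 0.89 at all 5 times.

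The proteins that deliver ligands or receptors gave no call. Cd14, which hands lipopolysaccharide to the Tlr4 complex, had differences of 1.25, 0.15, 0.11, 0.53 and 0.69 at the 5 times. Its mean of 0.55 ± 0.46 (SD) had an adjusted p of 0.0942. Cd36, a scavenger receptor that assists Tlr2 and Tlr6, had a mean difference of -0.13 ± 0.27 (adjusted p = 0.801). Among chaperones and processing enzymes the largest mean differences were those of Ctss, an endosomal protease, at 0.16 ± 0.15 (adjusted p = 0.558), and Ap3b1, a trafficking adaptor subunit, at 0.11 ± 0.06 (adjusted p = 0.724).

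**Figure D5:**
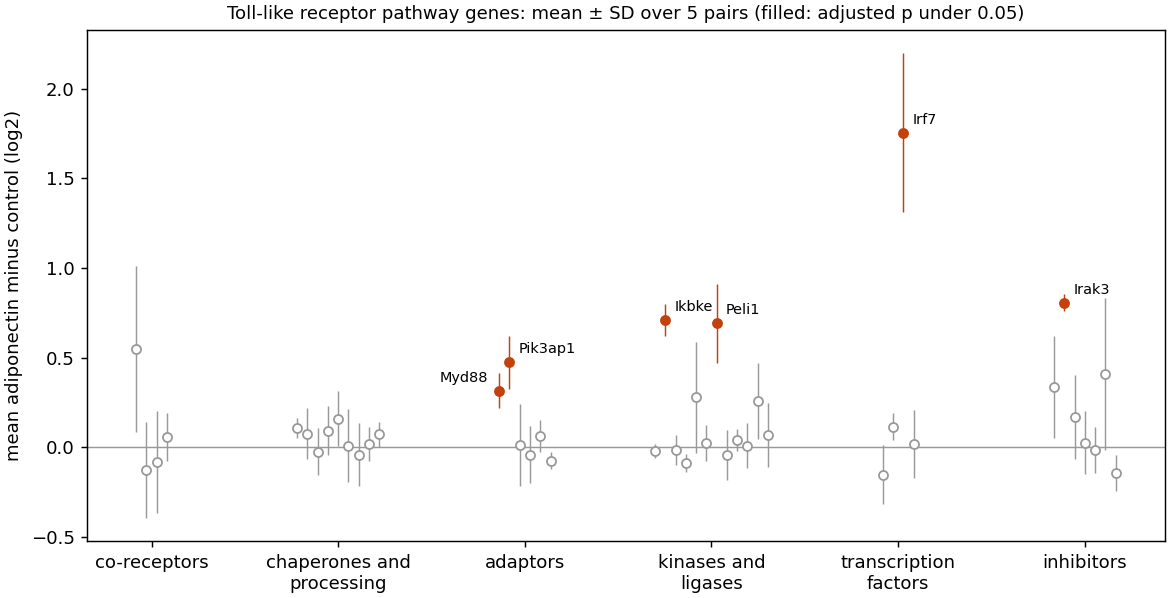
Mean adiponectin minus control (log2, over 5 pairs) of each measured pathway gene, grouped by role; bars are ± SD, and filled, labelled points passed the test. The labelled genes are Pik3ap1, Myd88, Ikbke, Peli1, Irf7 and Irak3, with Irf7 highest at 1.76.

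The genes whose pattern over the 10 arrays was most like a receptor's were found by Pearson correlation among 9960 genes of at least median level, as a description with no test; the arrays share treatment, time and scaling. Closest to Tlr3 were Mov10, an RNA helicase (r = 0.978), Oas2, an oligoadenylate synthetase (0.976), and Xaf1 (0.963). Closest to Tlr9 were Coro2a (0.987), Gm8995 (0.983) and Trim14 (0.983). Tlr2 was most like Slc7a2, a transporter of cationic amino acids (0.986), Met (0.981) and Cd40 (0.966).

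Tlr1 had Myd88 itself among its closest genes (r = 0.988), beside Usp25 (0.988) and Rassf4 (0.984). Tlr7 was most like P4ha1 (0.956), P2ry14 (0.948) and Car13 (0.947), and Tlr4 most like Spg20 (0.971), Tmem159 (0.959) and Scamp1 (0.957). The 3 genes closest to Tlr4 had mean adiponectin differences between -0.05 and 0.01, but they were chosen for following Tlr4 over these same arrays.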

How the data were processed

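The deposited table holds log2 values made by the authors, 1 per probe set and array, for 35556 probe sets. RMA, Affymetrix Expression Console and Partek are named per the submitters' processing notes; versions, order and genome build were not given in the sources used here. RMA includes quantile normalization, which removes much of any shift shared by most genes. The platform annotation gave 1 symbol for 21789 probe sets, several for 1621 and none for 12146. Where a gene had over 1 probe set (999 genes), that with the highest mean was used. Signal over background was not known, and the number of arrays limits the precision.

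Fits used limma 3.58.1 in R 4.3.3 (lmFit, eBayes, two-sided, Benjamini-Hochberg over 19938 genes, adjusted p under 0.05). The fitting code was checked on simulated data with independent noise in each gene and added effects larger than those of Tlr1, Tlr2 and Tlr7. That check does not cover smaller effects or shifts that real arrays share. The adiponectin effect was fitted with each of the 5 times as a block, leaving 4 residual degrees of freedom, so pairs were formed by the labelled times. SDs are over pairs. Slopes used log2 hours. All listed receptors are named, with pathway genes that passed the test or, where a role group had none, the 2 of largest absolute mean difference, and the 3 closest genes of receptors that rose and of Tlr4. Members, lists and motifs were chosen with earlier results of these data known. Alternatives changed scaling, probe sets, the filter on dim genes, the variance model, the time term and the pairs used.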

Additional observations from a re-analysis of the deposited data

Results flagged for a closer look

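Each set of 5 values of a receptor (control, adiponectin and their differences, 27 sets) was searched for a single value whose gap to its nearest neighbour exceeded 0.71 of the range. Chance alone gives such a value in about 5% of sets, and 2 were found. The 5 values of a group come from different times, so a lone value can also be a change over time.

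The Tlr4 value of the 10 h control culture was 9.28, below the next control value of 9.76 by 0.753 of the range. The same array had the lowest median over genes, 8.27. The Tlr7 value of the 120 h control culture was 11.60, above the next control value of 11.28 by 0.714 of the range.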

How the results depend on the processing

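The rises of Tlr3 and Tlr9 held under all 12 alternatives. The count of receptors that rose was 5, and it was 3 after repeated quantile normalization and 3 to 4 when 1 pair was left out. In the unpaired fit with no block for time it was 2 (Tlr3 and Tlr9). There the limma adjusted p of Tlr1 was 0.792, that of Tlr2 0.179 and that of Tlr7 0.342, and the cause was not tested. Of the pathway genes, Ikbke (0.092), Peli1 (0.383) and Myd88 (0.905) also lost their calls in that fit, and Myd88 with centred arrays (0.0715) and with log2 hours for the block (0.127). The Tlr2 call was also lost after quantile normalization (0.0668) and with an intensity trend (0.064). The count of receptors with a falling control slope was 0, but 1 with centred arrays, 3 with hours in place of log2 hours (Tlr1, Tlr6 and Tlr9), and 0 to 2 when 1 pair was left out. Of all 19938 genes, 888 fell in the main control fit, 1559 with centred arrays and 1335 with hours. In adiponectin cultures the count of receptors rising was 0 to 1 and that of receptors falling 0 to 3 when 1 pair was left out.

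Signs turned only where no call was made. With 1 pair left out, the mean difference of Tlr4 ran from -0.074 to 0.14, that of Tlr13 from -0.039 to 0.074, and the control slope of Tlr4 from -0.0081 to 0.14. The change of the difference with time then ran from -0.029 to 0.012 for Tlr6, -0.14 to 0.014 for Tlr3, -0.012 to 0.081 for Tlr7 and -0.011 to 0.063 for Tlr9. It was 0.0036 for Tlr6 with centred arrays, 0.0037 for late against early times, and -0.00024 for Tlr7 with hours. The control slope of Tlr2 was -0.0017 with centred arrays. With 1 array per group and time, no single time was tested.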

Other observations

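Of the mouse receptors outside the list, Tlr12, which recognises profilin of protozoan parasites, read from 7.27 to 7.43 (log2) in control cultures and from 7.31 to 7.70 in adiponectin cultures, with overlap. Its mean difference was 0.13 ± 0.19 (SD, n = 5 pairs; limma adjusted p = 0.738). Tlr11 had no probe set named by its symbol alone and is not analysed here.

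Over the 10 arrays the correlation (Pearson) between receptors that are neighbours in the genome was 0.897 between Tlr1 and Tlr6 and 0.887 between Tlr7 and Tlr8, as a description over arrays that share treatment and time. Receptors on different chromosomes reached similar values, with 0.858 between Tlr1 and Tlr9, 0.855 between Tlr3 and Tlr8 and 0.834 between Tlr3 and Tlr7, while Tlr1 and Tlr4 correlated at -0.564.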
